A study of Mus musculus with 8 samples.

Results

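The 10 genes described here set the pace at which a cell leaves G1 for S phase. They were taken by symbol from a table of 23427 mouse genes, and the set was drawn up with earlier results of these data known. They are the D-type cyclins *Ccnd1*, *Ccnd2* and *Ccnd3*, the E-type cyclins *Ccne1* and *Ccne2*, the kinase genes *Cdk4* and *Cdk6*, and the Cip/Kip inhibitors *Cdkn1a* (p21), *Cdkn1b* (p27) and *Cdkn1c* (p57). All 10 were in the table, and 9 of them passed the filter on low values, all but *Cdk6*.

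The mRNA came from primary oligodendrocyte precursor cells (OPCs) of wild-type C57BL/6J mice during differentiation toward oligodendrocytes (OLs), on Day 0 to Day 3. Cortices of 3 pups (postnatal day 7) were dissociated, microglia and endothelial cells were panned away, and cells that bound an antibody to PDGFRα were kept. They grew with PDGF-AA (10 ng/mL) and CNTF, and differentiation began when PDGF-AA was removed and the thyroid hormone T3 (40 ng/mL) was added, so the Day 1 to Day 3 groups differ from Day 0 in both. A figure legend of the study speaks of growth factors in the plural, and whether CNTF was also removed is not stated. The sample labels instead name DMEM with fetal bovine serum as the medium. Each day had 2 libraries, replicate 1 and replicate 2, described by the study as independent, and it is not stated whether a number marks the same cell isolation on every day.

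A cyclin binds a cyclin-dependent kinase and switches it on. D-type cyclins are made in response to growth factors such as PDGF and activate CDK4 and CDK6, which begin to phosphorylate the retinoblastoma protein and so release E2F transcription factors. E-type cyclins then activate CDK2, and E2F in turn drives the genes of DNA replication, the E-type cyclin genes among them. Cip/Kip proteins bind these complexes and block CDK2, while INK4 proteins bind CDK4 and CDK6 alone. In the oligodendrocyte lineage, withdrawal of PDGF or addition of T3 is known to end division, and p27 is known to build up as OPCs stop dividing.

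Levels are FPKM, the fragments of a gene per kilobase of transcript, scaled to the mapped fragments of the library. They are per length and are set side by side between genes as a description. The gene model, and so the lengths used, are not known. Changes are differences in log2(FPKM + 1) with their standard error (SE), tested with limma over the 12208 genes with at least 1 FPKM in at least 2 libraries. P-values were adjusted over all of these genes after Benjamini and Hochberg, and a gene is said to rise or fall when the adjusted p is under 0.05. On this scale the change of a gene at low level is understated. An exact permutation test of 2 against 2 libraries cannot go below p = 0.333, so single genes between days rest on the limma fit, which pools the spread of all genes and days. In bulk RNA, fewer cells of a type and less RNA per cell cannot be told apart.

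The libraries were shallow, an estimated 950000 to 1526000 fragments each, and the Day 3 libraries were the shallowest. OPC markers and OL markers followed the labels, with 4 of 5 OPC markers lower and 6 of 6 OL markers higher on Day 3 than on Day 0. Of the microglia markers, 4 of 5 were at 0 in every library, and no endothelial marker passed the filter. Of the neuron markers, 1 of 3 that passed, *Tubb3*, rose by Day 3. *Snap25* gave -1.79 and was called a fall only with the replicate number as a block (limma adjusted p = 0.0473). Of the mural cell markers 1 of 2, *Cspg4*, which OPCs express as well, fell. No astrocyte marker passed the test between days, but 2 of 5 rose by Day 3 with the replicate number as a block. The markers were divided by replicate number, and their summed level went up on every day in both replicates. On Day 0 to Day 3 it was 30.3, 38.1, 38.9 and 61.6 FPKM in replicate 1, and 204, 367, 506 and 775 FPKM in replicate 2.

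*Ccnd1*, the cyclin D1 gene, fell on the first day, by more than any other of the 9 tested genes on this scale. With a pseudocount of 0.1 in place of 1 *Ccne2* had the larger estimate on Day 1 (-5.07 against -4.64) and *Ccne1* on Day 3 (-3.82 against -3.73). It stood at 124 and 158 FPKM (Day 0, replicate 1 first), 9.24 and 3.30 (Day 1), 4.76 and 3.17 (Day 2), then 11.4 and 9.62 (Day 3). Both Day 0 libraries were far above the other 6, and the mean of Day 1 was 22.5-fold below that of Day 0. The first day alone took -4.41 on the log2 scale (SE 0.38, adjusted p = 7.61e-04), which ranks 18 among the falls of the 12208 genes. Between Day 2 and Day 3 the level went up in both replicates, by 1.10 and 1.35 on the log2 scale, and the libraries did not overlap, but the estimate of 1.23 (SE 0.38) did not pass the test (adjusted p = 0.190). On Day 3 *Ccnd1* was still 3.62 below Day 0 on the log2 scale (a change of -3.62, SE 0.38, adjusted p = 2.94e-04).

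*Ccnd1* was the member that the study itself also measured by qRT-PCR. That was in OPCs with knockdown of *Sbp2l* and forced expression of Tcf7l2, and the study reports no such measurement of *Ccnd1* over these days. The primers are given here because they mark which stretch of the transcript that assay reads. Both matched *Ccnd1* and no other gene of the annotation. The first lies in exon 1 (chr7:144939628-144939648, GRCm38, minus strand) and the second reads the plus strand in exon 2 (chr7:144938073-144938093), so the 183-base product spans the first intron.
ccnd1 forward: gcgtaccctgacaccaatctc
ccnd1 reverse: ctcctcttcgcacttctgctc
The gene has 3 annotated transcripts and lies at chromosome 7, 144929931 to 144939925. Its exons share 1100 bases with *LTO1* on the other strand, and the sources used here do not say whether fragments were counted by strand.

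*Ccnd3*, which encodes cyclin D3, fell over the course, with its largest step between Day 1 and Day 2. It stood at 44.5 and 50.8 FPKM (Day 0), 36.8 and 34.0 (Day 1), 17.1 and 13.8 (Day 2), then 20.7 and 9.31 (Day 3). The Day 0 and Day 1 libraries lay above all 4 later ones. The first step was -0.42 (SE 0.31, adjusted p = 0.450), and Day 2 against Day 1 gave -1.15 (SE 0.31, adjusted p = 0.0816). With the replicate number as a block the second step passed the test (adjusted p = 0.0448). Over the whole course *Ccnd3* fell by 1.70 on the log2 scale (SE 0.31, adjusted p = 0.00369). Its exons share 361 bases with *Bysl* on the other strand, which held 8.10 to 13.7 FPKM.

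*Ccnd2*, which encodes cyclin D2, was set apart by replicate number and not by day. The replicate 1 libraries held 2.37, 0.848, 0.854 and 1.75 FPKM on Day 0 to Day 3, and the replicate 2 libraries 8.19, 11.7, 7.81 and 6.69. Every replicate 2 library was above every replicate 1 library. Over the whole course the estimate was -0.28 (SE 1.05, adjusted p = 0.853), and leaving out single libraries moved it between -1.02 and 0.47. Within the replicates Day 3 minus Day 0 was -0.30 and -0.26, and the replicate block lowered the SE to 0.38 without a call (adjusted p = 0.587). Quantile normalization turned the estimate to 0.14.

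The makeup of the D-type cyclin mRNA turned over on the first day. The 3 genes summed to 171 and 217 FPKM (Day 0), 46.9 and 48.9 (Day 1), 22.7 and 24.8 (Day 2), then 33.8 and 25.6 (Day 3). *Ccnd1* made up 72.5% and 72.9% of the sum on Day 0 and between 6.74% and 37.6% in the later libraries. *Ccnd3* held the largest share from Day 1 on, 78.5% and 69.4% on Day 1, except in replicate 2 of Day 3, where *Ccnd1* held 37.6% and *Ccnd3* 36.3%. *Ccnd2* held 1.39% to 5.17% in the replicate 1 libraries, and in replicate 2 it went from 3.77% on Day 0 to 23.8%, 31.5% and 26.1% on the later days.

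**Figure D1:**
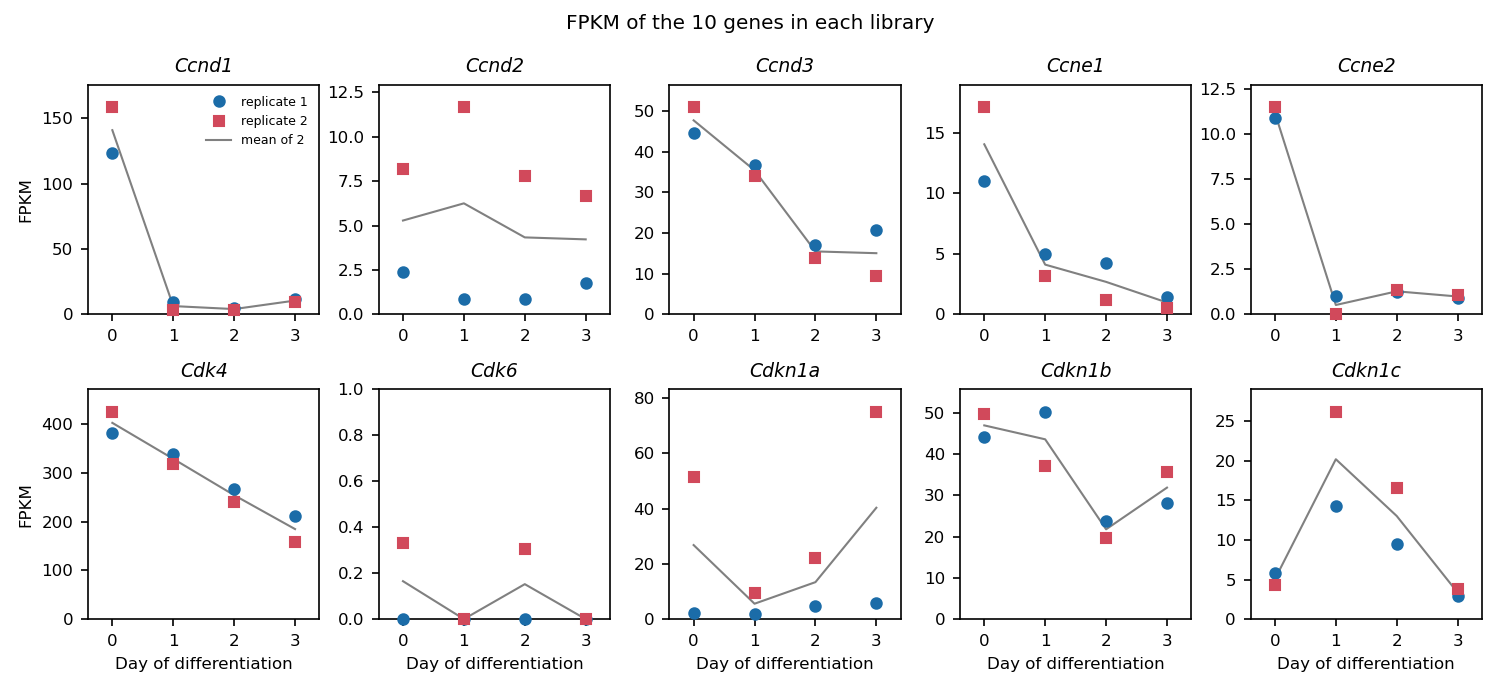
FPKM (y axis, linear and from 0, a scale of its own for each gene) of the 10 genes on Day 0 to Day 3 (x axis), with circles for replicate 1, squares for replicate 2 and a line through the mean of the 2 libraries. *Ccnd1* and *Ccne2* drop between Day 0 and Day 1, *Cdk4* declines on every day from 403 to 185 FPKM, *Cdkn1c* peaks on Day 1, and *Ccnd2* and *Cdkn1a* are split by replicate on every day.

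The E-type cyclins both fell from Day 0 to Day 3. Without the replicate block the first step passed the test for *Ccne2* and not for *Ccne1*, and the difference between these steps was not tested. *Ccne2* stood at 10.9 and 11.5 FPKM (Day 0), 1.03 and 0 (Day 1), 1.23 and 1.32 (Day 2), then 0.903 and 1.07 (Day 3). All 6 later libraries lay close to the floor of 3 fragments, between an estimated 0 and 5 fragments each, against 50 and 42 on Day 0. The first step was -3.10 (SE 0.38, adjusted p = 0.00165), and its size depends on the pseudocount (-5.07 with 0.1), since a Day 1 library is at 0. By Day 3 *Ccne2* had changed by -2.62 (SE 0.38, adjusted p = 0.00125). *Ccne2* shares 609 exonic bases with *Ints8* on the other strand, and *Ints8* itself ranged only from 14.1 to 21.6 FPKM.

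*Ccne1* stood at 11.0 and 17.1 FPKM (Day 0), 5.00 and 3.20 (Day 1), 4.20 and 1.15 (Day 2), then 1.41 and 0.534 (Day 3). Both libraries of Day 1 were below those of Day 0, and both of Day 3 rest on an estimated 3 and 1 fragments. The first step of -1.55 (SE 0.48) missed the threshold (adjusted p = 0.0714) and passed it with the replicate block (adjusted p = 0.0430). From Day 0 to Day 3 *Ccne1* fell by 2.94 on the log2 scale (SE 0.48, adjusted p = 0.00204).

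*Cdk4* was the most abundant of the 10 genes in every library, and each day was lower than the one before in both replicates. It stood at 382 and 425 FPKM (Day 0), 339.8 and 319 (Day 1), 268 and 242 (Day 2), then 212 and 158 (Day 3). Libraries of consecutive days did not overlap at any step, and yet no single step passed the test, with steps of -0.29, -0.37 and -0.47 (SE 0.16 each). Over the whole course *Cdk4* fell by 1.13 on the log2 scale (SE 0.16, adjusted p = 0.00114), to a mean on Day 3 that was 0.459 of the Day 0 mean. On Day 3 it was still the highest of the 10, and the next gene in order, *Cdkn1a*, had a mean of 40.3 FPKM. Its exons share 641 bases with *Tspan31* on the other strand, which held 77.7 to 93.8 FPKM throughout.

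*Cdk6*, the other kinase partner of D-type cyclins, was listed at 0 in 6 of the 8 libraries and at 0.330 and 0.304 FPKM in replicate 2 of Day 0 and of Day 2. At this depth these values rest on an estimated 5 fragments each if the longest transcript (11525 bases) is taken, and on fewer with a shorter one. *Cdk6* failed the filter, and its course over the days was not detectable at this depth.

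The promoter of *Cdk4* held CACGTG, the core of the E-box that Myc and related factors bind, 4 times in the 300 bases from 250 before to 50 after the RefSeq start (GRCm38). At least 1 copy was present in 7.15% of the 32851 promoters of the table, and at least 4 in 8 of them (0.0244%). The motif reads the same on both strands, and it was looked for after the values of *Cdk4* had been seen. Of the 6 genes among the 10 with a promoter in the table, only *Cdk6* had another match, 1 copy. The windows around 3 of the copies are shown, with the motif in capitals, since the number of copies is what sets this promoter apart from the others.
chr10:127063351-127063380, plus strand: atggcagccagtCACGTGccacacagcgta
chr10:127063405-127063434, plus strand: aagtcaaggggtCACGTGggatagcaacag
chr10:127063425-127063454, plus strand: atagcaacaggtCACGTGgccgtcagggcc
A match is a description of the letters and no measure of binding. The E2F motifs TTTCCCGC, TTTCGCGC, TTTGCCGC and TTTGGCGC, read on both strands, were in none of the 8 promoter windows of these 6 genes and in 2.26% of all promoters. At that share so few windows would seldom hold a match, so nothing is drawn from their absence. *Ccnd1*, *Ccnd2*, *Ccne2* and *Cdkn1c* had no promoter among those searched.

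*Cdkn1c*, which encodes p57, was the only one of the 9 tested genes that rose on the first day. It stood at 5.82 and 4.28 FPKM (Day 0), 14.3 and 26.1 (Day 1), 9.49 and 16.6 (Day 2), then 2.86 and 3.84 (Day 3). The 4 libraries of Day 1 and Day 2 lay above the other 4. The first step was 1.76 (SE 0.36, adjusted p = 0.0163), from a mean of 5.05 to one of 20.2 FPKM, with a rise in both replicates (1.16 and 2.36). The call is lost when replicate 1 of Day 0 (adjusted p = 0.0728), replicate 2 of Day 0 (0.129) or replicate 2 of Day 1 (0.114) is left out, or when only these 2 days are fitted (0.0547). Day 3 against Day 2 gave -1.65 (SE 0.36), which did not pass the test (adjusted p = 0.0965), and Day 3 did not differ from Day 0 beyond the test (-0.47, SE 0.36, adjusted p = 0.333). The libraries hold an estimated 6 to 63 fragments of *Cdkn1c*, and its exons share 625 bases with the antisense gene *Gm44732*.

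*Cdkn1b*, which encodes p27, did not rise at any step that passed the test. It stood at 44.2 and 49.8 FPKM (Day 0), 50.2 and 37.1 (Day 1), 23.9 and 19.7 (Day 2), then 28.2 and 35.6 (Day 3). Both Day 2 libraries were below all of the others. Day 2 against Day 1 gave -0.96 (SE 0.20, adjusted p = 0.0406), and leaving out any single library of Day 0, Day 1 or Day 2 ends that call (adjusted p from 0.0548 to 0.251), as do 5 of the other settings (adjusted p up to 0.143). The next step was 0.53 (SE 0.20, adjusted p = 0.281), and Day 3 against Day 0 gave -0.55 (SE 0.20, adjusted p = 0.0600). mRNA levels do not show the amount of the protein.

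*Cdkn1a*, which encodes p21 and is known as a target of p53, was split by replicate number. The replicate 1 libraries held 2.05, 1.71, 4.73 and 5.76 FPKM on Day 0 to Day 3, and those of replicate 2 held 51.6, 9.42, 22.0 and 74.9. The 4 libraries of replicate 2 lay above all 4 of replicate 1, and replicate 2 of a day was 4.66 to 25.2 times replicate 1. No comparison of days passed the test, Day 3 against Day 0 gave 0.84 (SE 1.50, adjusted p = 0.687), and the estimate moved between -1.21 and 2.89 as single libraries were left out. Within the replicates it was 1.15 and 0.53, and the replicate block brought the SE to 0.50, still without a call (adjusted p = 0.208). Within each replicate the level on Day 2 was above that of Day 1, by 1.08 and 1.14 on the log2 scale.

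**Figure D2:**
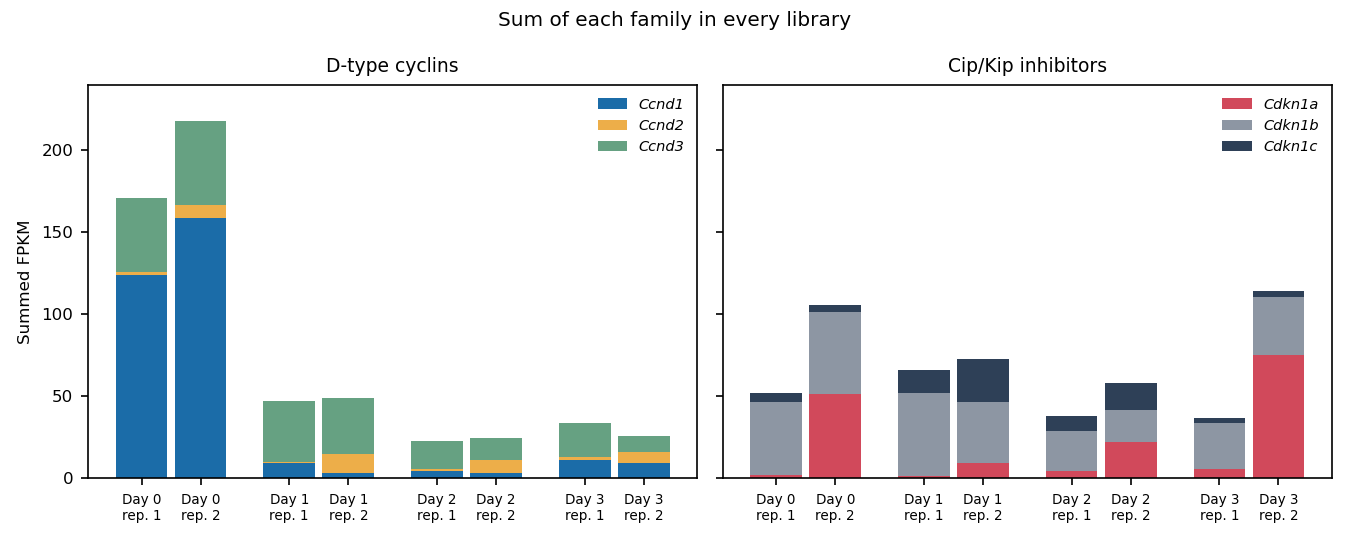
Summed FPKM (y axis) of the D-type cyclins (left) and the Cip/Kip inhibitors (right) in each of the 8 libraries (x axis), with the bars divided by gene. The D-type sum drops from 171 and 217 FPKM on Day 0 to at most 48.9 FPKM afterwards, and *Cdkn1a* makes most of the difference between the replicates of Day 3 in the inhibitor sum (36.8 and 114 FPKM).

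The 3 Cip/Kip genes summed to 52.1 and 106 FPKM (Day 0), 66.2 and 72.6 (Day 1), 38.1 and 58.3 (Day 2), then 36.8 and 114 (Day 3). The D-type cyclin sum was 3.28 and 2.06 times the inhibitor sum in the libraries of Day 0, and 0.224 to 0.918 times in the 6 later ones. Both Day 0 libraries were above 1 and every later library below it, and the ratio is given as a description.

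In the order of levels, *Cdk4* was first on every day and did not overlap with the gene below it. On Day 0 *Ccnd1* was second, also without overlap, and *Ccnd3*, *Cdkn1b*, *Cdkn1a* and *Ccne1* followed, each overlapping with the next. On Day 1 and Day 2 *Cdkn1b* was just below *Cdk4* and *Ccnd3* just below *Cdkn1b*, without overlap between them, and on Day 1 *Cdkn1c* came next, apart from both of its neighbours. The Day 1 libraries of *Ccnd1*, *Ccnd2*, *Cdkn1a* and *Ccne1* overlapped from each to the next. On Day 3 *Cdkn1a* and *Cdkn1b* followed *Cdk4* and overlapped, and so did *Ccnd3* and *Ccnd1*, which came next. The E-type cyclins ended just above *Cdk6*, at means of 0.987 FPKM for *Ccne2* and 0.970 FPKM for *Ccne1*, with overlap.

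Counted together, 3 of the 9 tested genes changed from Day 0 to Day 1, *Ccnd1* and *Ccne2* falling and *Cdkn1c* rising, where 12.6% of all genes tested changed (7.56% falling and 5.04% rising). The libraries of Day 1 lay below those of Day 0 for 5 of the 9 and above them for 1, where this held for 33.4% and 24.3% of all genes. The median change of the 9 was -0.42, against -0.07 for all genes. With the replicate block 3 of the 9 fell, *Ccne1* being added, and 1 rose, where 9.01% of all genes fell and 6.09% rose. From Day 1 to Day 2 only *Cdkn1b* of the 9 changed, a fall, where 3.89% of all genes changed (1.73% falling and 2.16% rising). With the replicate block 2 of the 9 fell, *Ccnd3* being added, where 3.57% of all genes fell in that fit. The libraries did not overlap for 3 falls (37.6% of all genes) and 1 rise (15.4%). From Day 2 to Day 3 limma called 0 of the 9 and 0.295% of all genes (0.0491% falling and 0.246% rising). An unadjusted limma p under 0.05 was found for 4 of the 9, *Ccnd1*, *Cdk4*, *Cdkn1b* and *Cdkn1c*, and for 1773 of all 12208 genes. In the earlier steps it was found for 4 of the 9 and 3269 genes (Day 1 against Day 0), and for 2 of the 9 and 2665 genes (Day 2 against Day 1). Between Day 2 and Day 3, 3 of the 9 were lower and 2 higher without overlap, where this held for 21.8% and 21.1% of all genes. The replicate block moved the calls of all genes from 475 to 803 from Day 1 to Day 2 and from 36 to 163 from Day 2 to Day 3, where it left *Cdkn1c* at an adjusted p of 0.0523.

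From Day 0 to Day 3, 5 of the 9 fell, *Ccnd1*, *Ccnd3*, *Ccne1*, *Ccne2* and *Cdk4*, and none rose, where 26.3% of all genes fell (3207) and 1460 genes rose, 38.2% in either direction. These are 4 of the 5 cyclin genes and the 1 kinase gene tested, and all 5 kept the call in all 18 fits run, the left-out libraries included. The libraries of Day 3 lay below those of Day 0 for 7 of the 9 and above them for 0, where this held for 48.6% and 22.8% of all genes. The median of all genes was itself -0.31, and 68.7% of all calls were falls. Relative to that median the changes were -3.31 for *Ccnd1*, -2.63 for *Ccne1*, -2.30 for *Ccne2*, -1.39 for *Ccnd3* and -0.82 for *Cdk4*. Median ratio scaling brought the median of all genes to -0.04 and the share of falls among the calls to 48.9%, and *Cdk4*, the smallest of the 5 changes, ranged from -1.14 to -0.82 over the settings other than left-out libraries, with adjusted p up to 0.0103.

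**Figure D3:**
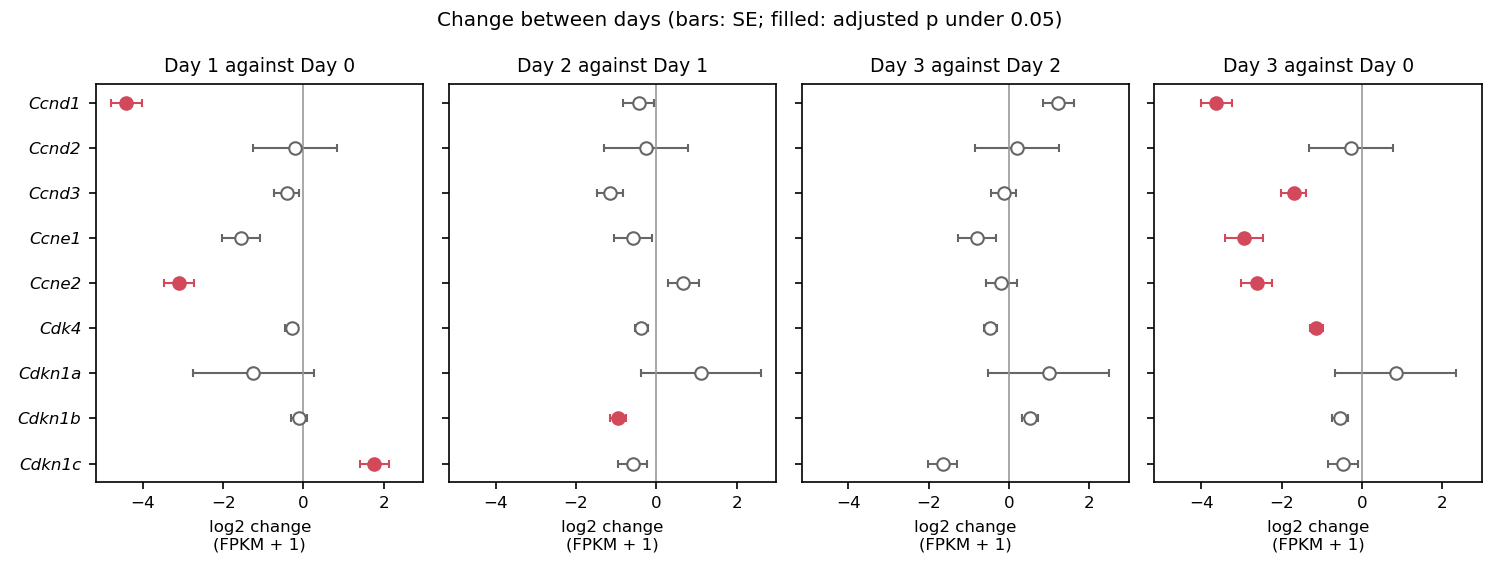
Change in log2(FPKM + 1) (x axis) of the 9 tested genes (y axis) in 4 comparisons of days, with bars for the SE and filled points for an adjusted p under 0.05. The filled points are *Ccnd1*, *Ccne2* and *Cdkn1c* from Day 0 to Day 1, *Cdkn1b* from Day 1 to Day 2, and 5 falls from Day 0 to Day 3, and the wide bars belong to *Ccnd2* and *Cdkn1a*.

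The slope on day was tested over the whole course. In the two-sided exact permutation test over all 2520 arrangements of the 8 libraries, 3 of the 9 genes had a falling slope, where 15.9% of all genes had one and 22.8% had a slope in either direction. A slope does not show equal steps, and the largest step was the first for *Ccne1* and the second for *Ccnd3*. *Cdk4* changed by -0.38 per day on the log2 scale (permutation p = 7.94e-04, the smallest possible, adjusted p = 0.0145). *Ccne1* changed by -0.94 per day (permutation p = 0.00317, adjusted p = 0.0251) and *Ccnd3* by -0.62 per day (permutation p = 0.00476, adjusted p = 0.0308). *Ccnd1* had a steeper slope, -1.13 per day, which did not pass (permutation p = 0.0865). Its largest step was the first, and its higher level on Day 3 than on Day 2 had not passed the limma test. The slopes of *Ccne1* and *Ccnd3* lose their call in 4 and 6 of the 8 fits that leave out a library, where adjusted p reached 0.0678 and 0.0840, and *Cdk4* kept it in all 8. With the replicate block, over 576 arrangements, the same 3 genes passed and the calls of all genes went from 2785 to 1855.

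Members of a family were compared by the slope of their difference, in 8 pairs. None passed after adjustment over the pairs in the exact permutation test. The nearest was *Cdk4* minus *Cdk6* (-0.33 per day on the log2 scale, permutation p = 0.00714, adjusted p = 0.0571). This pair passed with the replicate block (adjusted p = 0.0278) and was far from it with a pseudocount of 0.1 (-0.16 per day, permutation p = 0.632, adjusted p = 0.722). *Cdk6* was at or near 0 in every library, so the pair does not compare the courses of both genes. *Ccnd1* minus *Ccnd3* differed by -0.51 per day (permutation p = 0.369) and *Ccne1* minus *Ccne2* by -0.22 per day (permutation p = 0.455), so different slopes within these families were not shown.

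Other genes of the pathway were read in lists of inhibitors, Rb and E2F proteins, kinase control, p53 targets and division genes. Of the 4 INK4 inhibitor genes, *Cdkn2c* (p18) fell with the cyclins, from 44.8 and 39.1 FPKM on Day 0 to 8.11 and 2.12 on Day 1 and 2.49 and 3.77 on Day 3. Over the course it changed by -3.39 (adjusted p = 8.40e-04). It was the 1 gene of the 4 that passed the test from Day 0 to Day 3, where 26.3% of all genes fell. With the replicate block *Cdkn2a* also fell (adjusted p = 0.00685), against an adjusted p of 0.301 without it. With that block 29.1% of all genes fell.

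Of the 13 genes of the Rb and E2F families, 9 fell from Day 0 to Day 3 (26.3% of all genes) and none rose, with a median change of -1.19. The largest falls were *E2f7*, an E2F that represses (-3.28), and *Rbl1*, which encodes p107 (-3.11). *Rbl1* stood at 15.2 and 13.9 FPKM on Day 0 and at 1.50 or less in every later library. *Rb1*, the gene of the retinoblastoma protein, went from 15.4 and 17.1 FPKM to 20.0 and 25.1 and did not pass the test (0.44, adjusted p = 0.112). From Day 0 to Day 1, 6 of the 13 fell (7.56% of all genes).

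Of the 12 genes of G1/S kinase control and turnover, 5 fell from Day 0 to Day 3 (26.3% of all genes) and none rose, with a median of -0.27, close to that of all genes. *Cks1b*, a cofactor that binds CDKs and takes part in the destruction of p27, fell by 3.11 on the log2 scale. *Cdk2*, the partner of the E-type cyclins, went from 31.8 and 23.0 FPKM on Day 0 through 19.1 and 8.68 on Day 1 to 2.03 and 0.657 on Day 2 and 4.81 and 3.65 on Day 3. Its step from Day 1 to Day 2 was -2.64 (adjusted p = 0.0191). *Skp2*, the ubiquitin ligase subunit that targets p27, fell by 2.32 on the log2 scale (adjusted p = 0.00195), and *Cdkn1b* mRNA did not change beyond the test over the same days.

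All 12 genes of S phase and mitosis fell, both from Day 0 to Day 1 and from Day 0 to Day 3, with medians of -3.74 and -3.92, where 7.56% and 26.3% of all genes fell. *Ccnb1*, the mitotic cyclin B1 gene, changed by -5.35 from Day 0 to Day 3, *Top2a* by -4.87 and the proliferation marker *Mki67* by -4.80. *Ccnd1* and *Ccne2* fell on the same day as these genes, while the first step of *Cdk4* and *Ccnd3* did not pass the test. Of the 13 p53 pathway genes, *Gadd45a* rose from Day 0 to Day 3 (1.17) and *Plk2* (-1.61) and *Trp53* (-1.17) fell, and these 2 falls of 13 are a smaller share than the 26.3% of all genes, and the 1 rise a smaller share than the 1460 of 12208. *Mdm2* gave 0.63 (adjusted p = 0.0985), and was called a rise with the replicate block (adjusted p = 0.0364). With the replicate block the calls in this list went from 1 rise and 2 falls to 3 rises and 4 falls. In that fit 13.2% of all genes rose and 29.1% fell.

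Since 2 of the 10 genes were divided by replicate number, that difference was itself measured, after the values had been seen, with the day kept in the limma fit. *Cdkn1a* was 2.89 higher in replicate 2 on the log2 scale (SE 0.35, adjusted p = 0.00866), rank 8 among the 12208 genes in that direction. *Ccnd2* was 1.99 higher (SE 0.27, adjusted p = 0.0127), rank 33. Both were higher in replicate 2 on 4 of 4 days. These are 2 of 9 genes, where 0.680% of all genes were higher in replicate 2, 0.369% lower and 1.05% different in either direction, and the other 7 did not pass the test, with estimates from -0.46 to 0.38. The calls rest on all 4 days: without both libraries of Day 0 the differences were 2.48 and 2.17 (adjusted p = 0.0576 and 0.0684), and leaving out any other day ended 1 of the 2 calls.

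Other genes differed with the replicate number as well, and those named here were chosen after their values had been seen. Of the 5 astrocyte markers, *Gfap*, *Aqp4*, *Gja1* and *Aldh1l1* were higher in replicate 2, and *Slc1a2* gave 0.79 (adjusted p = 0.155). *Gfap*, the intermediate filament gene of astrocytes, stood at 14.7 to 45.5 FPKM in replicate 1 and 154 to 603 FPKM in replicate 2. Of the 13 p53 pathway genes, 3 were higher in replicate 2, *Ccng1* by 1.82, *Phlda3* by 1.67 and *Zmat3* by 0.84, and 9 of the 13 estimates were above 0. *Ccng1*, a p53 target, stood at 20.2 to 33.4 FPKM in replicate 1 and 54.3 to 189 FPKM in replicate 2. *Trp53* itself gave -0.41 (adjusted p = 0.260) and *Mdm2* 0.37 (adjusted p = 0.359).

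The INK4 gene *Cdkn2a*, whose locus encodes p16 and the p53-stabilising protein ARF, differed the other way. It stood at 74.6, 50.6, 30.7 and 31.0 FPKM in replicate 1 on Day 0 to Day 3, and at 19.3, 7.58, 0.808 and 1.12 in replicate 2. Replicate 2 was below replicate 1 by a difference of -3.13 on the log2 scale (SE 0.35, adjusted p = 0.00585), on 4 of 4 days. *Pdgfra*, the OPC marker used for the capture, was lower as well (-1.81, adjusted p = 0.0461). It stood at 490.3, 78.2, 28.8 and 29.2 FPKM in replicate 1 on Day 0 to Day 3, and at 396, 11.2, 5.39 and 6.53 in replicate 2. The other 4 OPC markers did not pass the test, with estimates from -0.37 (*Cspg4*) to 0.0098 (*Olig1*). Of the 3 neuron markers tested *Tubb3* was lower in replicate 2 (-1.15, adjusted p = 0.00350), at 20.8 to 113 FPKM against 60.2 to 231, and of the 6 OL markers *Mag* was higher (0.69, adjusted p = 0.0425). The part of any of these in the split of *Cdkn1a* and *Ccnd2* was not tested.

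**Figure D4:**
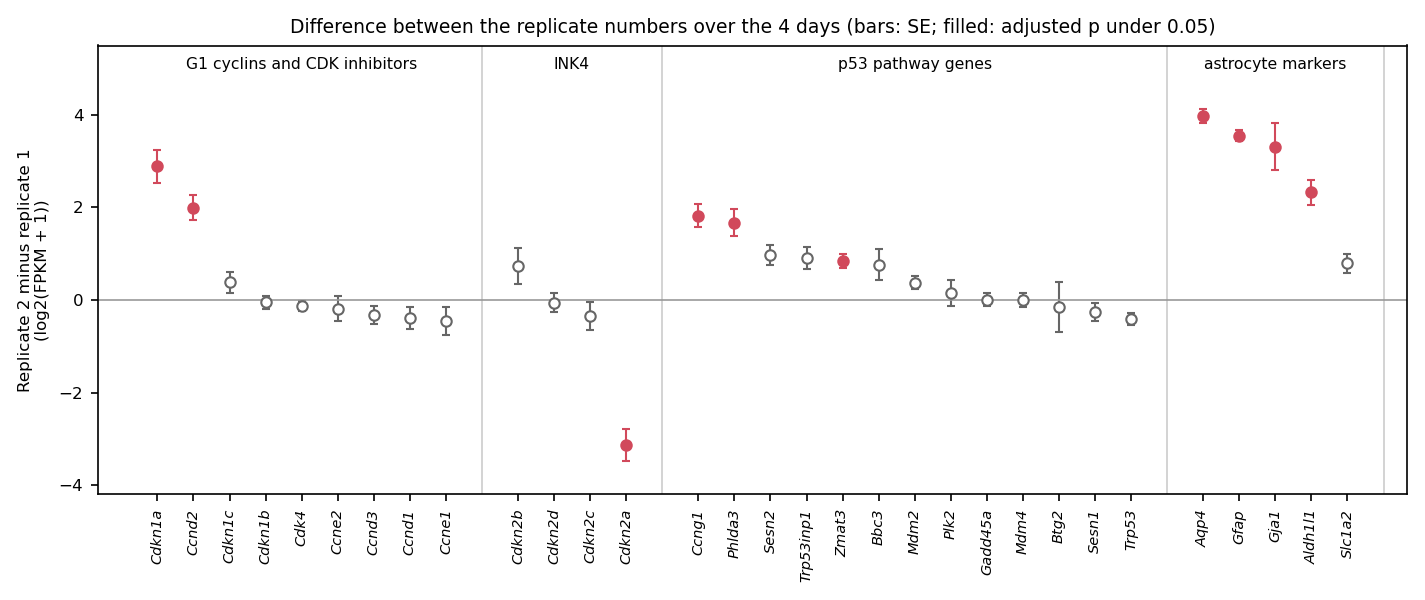
Replicate 2 minus replicate 1 in log2(FPKM + 1) (y axis) over the 4 days, for the 9 tested genes, the INK4 inhibitors, 13 p53 pathway genes and 5 astrocyte markers (x axis), with bars for the SE and filled points for an adjusted p under 0.05. *Cdkn1a* (2.89) and *Ccnd2* (1.99) stand above the other 7 of their group, 3 p53 pathway genes and 4 astrocyte markers are higher in replicate 2, and *Cdkn2a* (-3.13) is lower.

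For the tested genes other than *Ccne2* and *Cdkn1c*, the 3 genes with the most alike course were sought among 8655 genes with a mean of at least 5 FPKM, by Pearson's r of log2(FPKM + 1) over the 8 libraries. The r is a description, since the libraries share days and replicate numbers. *Ccnd1* was most like *Pbk*, a mitotic kinase gene (0.994), *Chl1* and *Olig1*. *Cdk4* was most like the ribosomal protein gene *Rpl5* (0.997), *Ddx41* and *Fnbp1l*, *Ccnd3* most like *Slc8a2* (0.995), *Nalcn* and *Nop56*, and *Ccne1* most like *Klhdc10* (0.991), *Ergic1* and *B930041F14Rik*. *Cdkn1a* was most like *Ccng1* (0.986), *Exoc4* and *Gstm1*, and *Ccnd2* most like *Ndn* (0.981), *Rchy1* and *Pcdhga11*. *Cdkn1b* was most like *Setd7* (0.975), *Omg* and *Foxj3*.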

How the data were processed

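Fastq files of stranded, paired-end mRNA libraries were processed by the authors with OmicSoft ArrayStudio, and FPKM of 23427 genes in 8 libraries were deposited by the authors in a single table, with replicates not pooled. The submitters' processing notes name mm10. The aligner, the gene model and the use of strand in counting are not given in the sources used here, and labels and methods name different RNA kits. The methods name DESeq2, which needs counts and was not used here.

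The test was limma 3.58.1 (R 4.3.3) with a trend on expression, day as a factor and all 8 libraries, run on log2(FPKM + 1) of the 12208 genes that reached 1 FPKM in 2 or more libraries, with Benjamini-Hochberg adjustment. Slopes were tested by exact permutation over all genes. Other steps ran in Python 3.11.15 (pandas 2.3.3, numpy 2.4.6, scipy 1.17.1, figures with matplotlib 3.10.9). The labels of the samples give the day and the replicate number. P-values measure only the spread between these libraries, which may be technical. Libraries with the same number deviated together (r of 0.164 to 0.285 in 6 pairs of days), so a fit with the replicate number as a block was run as well. Both tests were tried on simulated data with changes of known size. Low FPKM values move in steps of 1 fragment, which gave the depth, and fragments per gene assume its longest transcript. Coordinates are those of GENCODE M21 (GRCm38), and promoter sequences those of RefSeq.

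The 10 genes and the other lists were chosen with earlier results of these data known. All 10 are named, and of each other list up to 2 rises and 2 falls, those of largest size among its genes called on Day 3 against Day 0, with *Cdk2*, *Rb1*, *Skp2*, *Trp53*, *Mdm2* and *Mki67*. Other genes were chosen after their values were seen. The genes most like *Ccne2* and *Cdkn1c* are not reported here.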

Additional observations from a re-analysis of the deposited data

How the results depend on the processing

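Over the settings tried, the 5 falls on Day 3 against Day 0 and the falls of *Ccnd1* and *Ccne2* on Day 1 kept direction and call. Of 849 single values recomputed, 780 kept both, 30 lost a call, 9 gained one and 30 turned direction, all in values not called. Counts that moved by over 1.5 times are given here, and the cause was not tested except where fewer libraries or more genes were tested by construction.

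For Day 2 against Day 1, 475 genes became 247 without a filter, 121 without a trend, 803 with the replicate block and 0 with only the days compared. Of the 9 genes described, 1 was called there and 0 without a filter, with median ratio scaling, with quantile normalization, with only the days compared and without a trend, and 2 with the replicate block. For Day 3 against Day 2, 36 genes became 8 with a pseudocount of 0.1, 163 with the replicate block, and 0 without a filter, with only the days compared or without a trend. The replicate block took the slope calls from 2785 to 1855 genes and the called pairs from 0 to 1, *Cdk4* minus *Cdk6*. Beyond the values given beside the results it changed no other call of the 9 genes. For replicate 2 against replicate 1, 128 genes became 72 with a pseudocount of 0.1, and 44, 71, 38 and 72 when both libraries of Day 0, Day 1, Day 2 or Day 3 were left out, with 0, 1, 1 and 1 of the 9 genes called instead of 2.

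Scaling moved the share of falls among all calls from 60.0% to 49.8% at the lowest on Day 1 against Day 0 (quantile), from 44.4% to 21.7% on Day 2 against Day 1 (median ratio), from 68.7% to 48.9% on Day 3 against Day 0 (median ratio) and from 69.6% to 44.0% for the slope (median ratio). With quantile normalization *Ccnd2* turned to 0.0055 on Day 1 and 0.14 on Day 3 against Day 0 and to a slope of 0.040, and *Cdkn1c* to 0.012 on Day 3 against Day 0.

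Leaving out 1 library at a time gave 583 to 1585 genes called for Day 1 against Day 0, 11 to 445 for Day 2 against Day 1 (0 to 2 of the 9 genes), 0 to 223 for Day 3 against Day 2, 2769 to 4548 for Day 3 against Day 0, 1170 to 2095 slopes (1 to 3 of the 9 genes) and 0 to 1 pairs. Where a day was left with 1 library, that library was assumed to vary like the others. Values that turned direction had these ranges on the log2 scale. Day 1 against Day 0 gave -3.31 to 0.80 for *Cdkn1a*, -1.59 to 1.18 for *Ccnd2* and -0.33 to 0.095 for *Cdkn1b*. Day 2 against Day 1 gave -1.65 to 1.13 for *Ccnd2*, -1.22 to 0.050 for *Ccne1* and -1.06 to 0.19 for *Ccnd1*. Day 3 against Day 2 gave -0.76 to 2.72 for *Cdkn1a*, -0.67 to 0.41 for *Ccnd3* and -0.94 to 1.31 for *Ccnd2*. Day 3 against Day 0 gave -1.21 to 2.89 for *Cdkn1a* and -1.02 to 0.47 for *Ccnd2*. Slopes gave -0.31 to 0.075 for *Ccnd2*, -0.14 to 0.99 for *Cdkn1a* and -0.45 to 0.019 for *Cdkn1c*. The slope of *Cdkn1a* minus *Cdkn1c* ran from -0.083 to 1.45 and that of *Cdkn1b* minus *Cdkn1c* from -0.31 to 0.22.

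At 950000 to 1526000 fragments per library, *Cdk6*, and *Ccne1* and *Ccne2* on the later days, were at or near the floor of 3 fragments, and the table gives no counts.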
